A study of Mus musculus with 2 samples.

Results

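The AP-1 and immediate early factors are a group of 9 transcription factor genes, taken by symbol from the deposited expression table. They are the Fos family (Fos, Fosb, Fosl1 and Fosl2), the Jun family (Jun, Junb and Jund), Atf3 and Myc. All 9 were found among the 23361 genes with values, and all 9 were above 0 in both libraries. RNA-Seq was performed in brown preadipocytes (D0) and in brown adipocytes after 7 days of differentiation (D7), with 1 library per stage. Both stages derive from C57BL/6 mice, newborn at isolation, whose interscapular BAT supplied the cells. The methods of the study name the substrain C57BL/6J and newborn mice of either sex, and do not state whether cells of several animals were pooled in a library. Per the labels, FBS was at 20% in isolation, and cells were plated in a differentiation medium containing T3 at 1 nM, insulin at 0.1 μM and 10% FBS. Induction began at day 0 with indomethacin (0.125 mM), IBMX (0.5 mM) and dexamethasone (2 μg/ml), and these inducers were withdrawn 2 days later. The methods of the study give other concentrations of insulin and dexamethasone. Whether the D0 cells were collected before the inducers were added is not stated. IBMX raises cyclic AMP by inhibiting phosphodiesterases, and dexamethasone activates the glucocorticoid receptor. The labels call the cells primary cultures, whereas the methods of the study describe immortalization with large T, a viral protein that drives cell division. Values are FPKM, a count of fragments scaled by transcript length and by sequencing depth, so that levels of different genes can be compared. Since each stage was a single library, no p-value was computed and the spread between cultures is unknown. The recovered depth was 21471020 fragments at D0 against 18265378 at D7, so that 1 fragment was worth 1.18 times more FPKM at D7. Intervals are 95% intervals that cover counting error only.

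AP-1 is a dimer of basic leucine zipper proteins. Jun proteins pair with each other or with Fos proteins, and Fos proteins require a Jun-type partner. Many of these genes are immediate early genes, whose short-lived mRNAs appear within minutes of serum, growth factors, stress or cyclic AMP without new protein synthesis. Atf3 is a related leucine zipper factor that is induced by stress and often represses its targets. Myc pairs with Max and supports ribosome production and cell growth. In preadipocytes, Fos, Jun and Myc are known to be induced early after the hormonal stimulus, before the master regulators of the adipocyte appear.

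The promoters of the 4 factors with the 2 lowest and the 2 highest ratios of D7 to D0 (Junb, Fosl2, Atf3 and Fos) are shown, so that the sequence at the start of factors on both sides of 1 can be compared. The sequences are from RefSeq (GRCm38.p6, the same assembly as mm10). They run from 250 bases before to 50 bases after the annotated start, written 5′ to 3′ on the strand of the gene. Capitals mark matches to the short cyclic AMP response element (TGACGT), the CCAAT box (CCAAT) and the TATA box (TATAAA). A match on the opposite strand appears as its reverse complement, as do both of Atf3. Fosl2 has none of these and is in lower case throughout. GC boxes were counted but not capitalized.
Junb (chr8:84978699-84978998, minus strand): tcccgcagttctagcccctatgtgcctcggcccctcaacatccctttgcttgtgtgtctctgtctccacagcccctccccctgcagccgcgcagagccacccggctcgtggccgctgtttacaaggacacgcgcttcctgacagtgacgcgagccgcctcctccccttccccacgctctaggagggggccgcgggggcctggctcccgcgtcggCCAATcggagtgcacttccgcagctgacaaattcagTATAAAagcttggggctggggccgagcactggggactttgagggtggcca
Fosl2 (chr5:32136222-32136521, plus strand): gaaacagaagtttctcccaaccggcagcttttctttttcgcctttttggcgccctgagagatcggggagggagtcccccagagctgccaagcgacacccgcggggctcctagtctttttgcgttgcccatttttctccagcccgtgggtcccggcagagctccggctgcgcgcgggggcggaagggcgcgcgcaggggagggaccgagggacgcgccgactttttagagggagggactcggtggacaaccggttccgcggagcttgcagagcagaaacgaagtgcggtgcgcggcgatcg
Atf3 (chr1:191183284-191183583, minus strand): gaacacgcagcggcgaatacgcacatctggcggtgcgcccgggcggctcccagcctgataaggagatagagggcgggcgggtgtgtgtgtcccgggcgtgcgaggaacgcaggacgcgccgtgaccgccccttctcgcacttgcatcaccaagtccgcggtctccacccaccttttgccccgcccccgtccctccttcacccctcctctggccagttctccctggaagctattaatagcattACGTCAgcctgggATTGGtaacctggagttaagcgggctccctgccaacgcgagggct
Fos (chr12:85473640-85473939, plus strand): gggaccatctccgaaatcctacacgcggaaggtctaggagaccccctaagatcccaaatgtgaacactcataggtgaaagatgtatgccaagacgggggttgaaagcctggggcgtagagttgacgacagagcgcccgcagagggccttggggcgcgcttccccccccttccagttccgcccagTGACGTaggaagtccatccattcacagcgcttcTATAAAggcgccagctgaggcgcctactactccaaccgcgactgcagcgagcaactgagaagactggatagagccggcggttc

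Of the 9 factors, 7 were matched in the promoter table, and Fosl1 and Myc were not matched. TATAAA was searched on the strand of the gene and the other motifs on both strands. The short cyclic AMP response element was present in 2 of the 7 promoters, Fos and Atf3, compared with 7.55% of 32544 promoters in the table. In Fos it lay at bases -66 to -61 before the start, and in Atf3 at -8 to -3 on the opposite strand. The TATA box was found in 2 of 7, Fos and Junb, against 8.28% of all promoters. It lay at bases -33 to -28 in Fos and at 1 to 6, from the annotated start itself, in Junb. CCAAT was found in 3 of 7 (Atf3, Jun and Junb), against 37.4%, and the GC box (GGGCGG) in 5 of 7, against 35.9%. The median GC content over all promoters was 53.0%. It was 58.7% in Fos, 60.0% in Jun, 64.7% in Atf3 and Fosl2, 65.3% in Junb and 68.3% in Fosb. Jund, at 46.7%, had no match to any motif searched. The part of GC content in these counts was not tested. The AP-1 site itself (TGANTCA), the full cyclic AMP response element (TGACGTCA, which contains the short form), the E-box (CACGTG) and the CArG box had no match in the 7 windows. They were present in 7.79%, 1.80%, 7.17% and 1.64% of all promoters. Sequence more than 250 bases before the start was not searched, so a site farther upstream would be missed. A match is a description of letters and not a binding site.

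Compared with D0, 2 of the 9 factors were lower at D7 by at least 2.0-fold, 1 was higher and 6 were between. Over the 14986 genes above 0 in both libraries, 13.2% were lower and 18.5% were higher by the same threshold. The median log2 ratio was -0.58 over the 9 factors and 0.02 over all these genes. The ratio was below 1 for 7 factors (Junb, Fosl2, Fosl1, Jun, Myc, Fosb and Jund) and for 49.4% of all genes. The 95% interval lay wholly below 1 for 6 factors and wholly above 1 for 2, and only that of Fosb included 1. No scaling or pseudocount tried changed the direction of any of the 9. A pseudocount cannot do so. Each scaling shifted the log2 ratios downward, so that only Fos and Atf3 could have changed direction. Dividing both libraries by their medians, with a floor of 0.01 FPKM, shifts the log2 ratio of every gene above the floor in both by -0.35. No factor was then higher, against 12.1% of 23361 genes, and 3 were lower, against 16.4%. With 1 added to each FPKM, 0 were higher and 2 lower, against 6.56% and 4.37%. At 1.5-fold, 2 were higher and 4 lower, against 27.7% and 23.6%. At 4.0-fold, 0 were higher and 0 lower, against 8.08% and 3.86%.

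**Figure D1:**
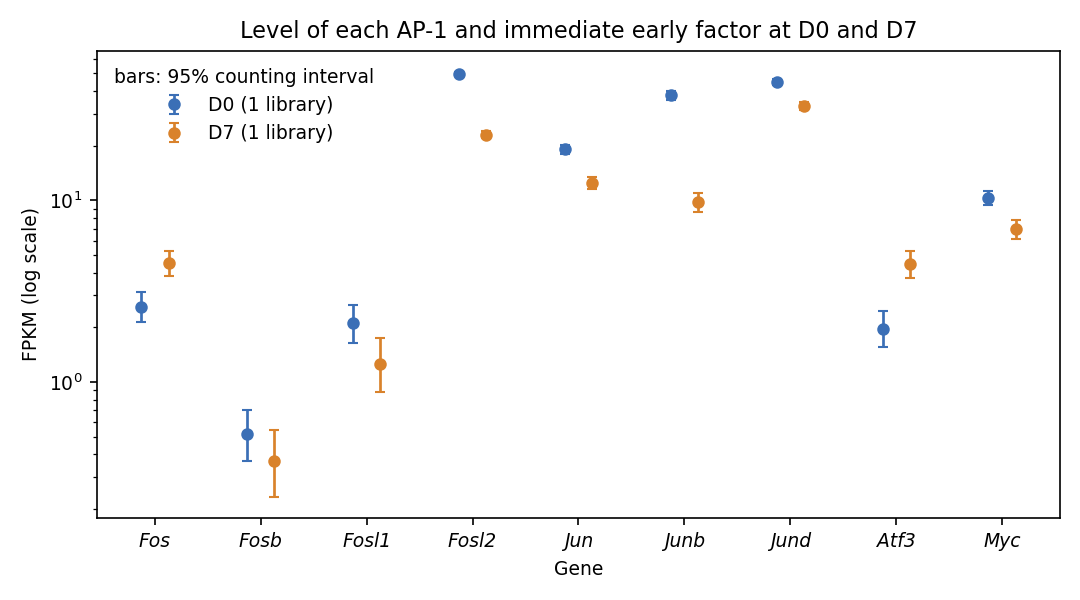
FPKM on a log scale (vertical axis) of each of the 9 factors at D0 (blue) and D7 (orange), 1 library per stage, with bars for the 95% counting interval. Fosl2, Jund and Junb stand highest at D0, Junb lies at 37.9 and 9.74, and Fos and Atf3 are the ones that are higher at D7.

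Junb encodes a Jun protein that activates many AP-1 sites less strongly than Jun and can restrain its action. The gene (NM_008416, chromosome 8, 84976909 to 84978748 of mm10, minus strand) has a single exon. Its FPKM was 37.9 at D0, from 1351 fragments, and 9.74 at D7, from 295 fragments. The ratio of 0.257 (95% interval 0.226 to 0.292) is a 3.89-fold lower level at D7, and the lowest of the 9. Of the 14986 genes with a ratio, 602 had a lower one.

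Jun, the founding member of the family and a target of Jun N-terminal kinases, has a single exon on chromosome 4 (NM_010591, 95049036 to 95052222, minus strand). Its FPKM was 19.1 at D0 against 12.5 at D7, a ratio of 0.653 (0.594 to 0.718) that did not reach the threshold. Junos, an annotated antisense gene, overlaps 689 bases of it. Jund (NM_010592, chromosome 8, 70697739 to 70700616, plus strand), a Jun protein known to slow growth of fibroblasts, also has a single exon. It stood at 44.7 FPKM at D0 against 33.0 at D7, a ratio of 0.737 (0.692 to 0.784). The antisense gene Gm11175 lies over 919 bases of Jund. The methods of the study describe degradation of the second cDNA strand during library preparation, which preserves strand. Whether strand was used in counting is not stated, so the values of Jun and Jund may include antisense reads.

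Fosl2 encodes Fra-2, a Fos protein without the strong activating domain of Fos. Its gene (NM_008037, chromosome 5, 32136472 to 32157839, plus strand) has 4 exons. At D0 it had an FPKM of 49.6, the highest of the 9 and above 92.9% of the genes in the table. At D7 the FPKM was 23.0, so that the level was 2.16-fold lower (ratio 0.464, 95% interval 0.442 to 0.486).

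Fosl1 encodes Fra-1, another Fos protein without that domain, and is itself a target of AP-1. Its FPKM was 2.11 at D0, from 69 fragments, and 1.26 at D7, from 35 fragments, with a ratio of 0.597 (0.386 to 0.910). The locus in the table (NM_010235, chromosome 19, 5447698 to 5457563, plus strand) also covers Ccdc85b on the opposite strand, whose FPKM was 10.6 at D0 against 5.84 at D7. Fosb (NM_008036, chromosome 7, 19302696 to 19310045, minus strand) encodes FosB and, by splicing, the shorter ΔFosB, which one value per gene cannot separate. It was the least abundant factor, with an FPKM of 0.518 at D0 against 0.366 at D7 from 40 and 24 fragments. Its ratio of 0.706 had an interval from 0.407 to 1.20, so no change of Fosb was detectable at this depth.

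Fos, the classical immediate early gene, was one of the 2 factors with a higher value at D7. Its 4 exons lie on chromosome 12 (NM_010234, 85473901 to 85477270, plus strand). The FPKM was 2.60 at D0 against 4.50 at D7, from 107 and 157 fragments. The ratio of 1.73 (1.34 to 2.23) did not reach 2.0, and the interval includes it. Atf3 (NM_007498, chromosome 1, 191170297 to 191183333, minus strand) was the factor that was higher by at least 2.0-fold. Its FPKM was 1.97 at D0 against 4.46 at D7, from 76 and 146 fragments, a ratio of 2.26 (1.70 to 3.03), whose interval also includes 2.0. The call of Atf3 depended on the setting, since its ratio became 1.77 when both libraries were set to a common median and 1.84 with 1 added to each FPKM.

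Myc has 3 exons on chromosome 15 (NM_010849, 61985341 to 61990361, plus strand). Its FPKM was 10.3 at D0 against 6.94 at D7, from 493 and 281 fragments. The ratio of 0.671 (0.577 to 0.778) lay below 1 without reaching 0.5.

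**Figure D2:**
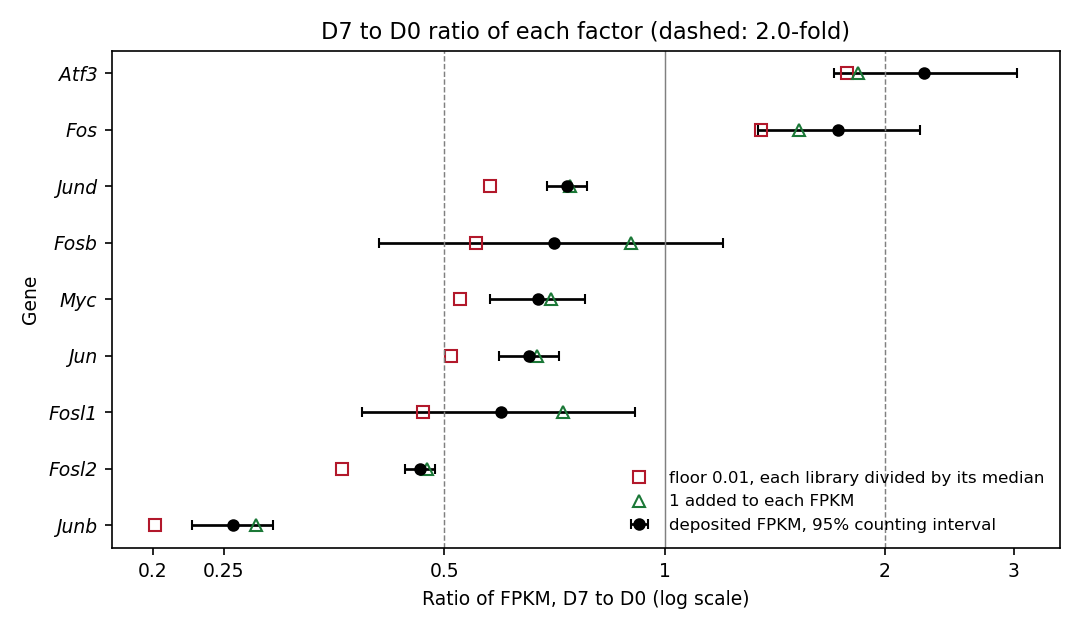
Ratio of FPKM, D7 to D0, on a log scale (horizontal axis) for each factor: black points with 95% counting intervals are the deposited values, red squares are scaled to a common library median, and green triangles follow addition of 1 to each FPKM. Dashed lines mark 2.0-fold, which Junb (0.257) and Fosl2 (0.464) pass on the lower side in all 3 settings and Atf3 (2.26) on the upper side in the deposited values only.

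The order of the levels differed between the stages at the top. At D0 it was Fosl2, Jund, Junb, Jun, Myc, Fos, Fosl1, Atf3 and Fosb. Fosl2 exceeded Jund 1.11-fold (1.06 to 1.16), and Jund exceeded Junb 1.18-fold (1.11 to 1.26). Fos, Fosl1 and Atf3 followed without clear order, since the intervals of Fos over Fosl1 (ratio 1.24, 0.905 to 1.70) and of Fosl1 over Atf3 (ratio 1.07) both included 1. At D7 the order was Jund, Fosl2, Jun, Junb, Myc, Fos, Atf3, Fosl1 and Fosb. Jund now exceeded Fosl2 1.43-fold (1.34 to 1.53), and Jun exceeded Junb 1.28-fold (1.12 to 1.48). Fos and Atf3 were next to each other and not separated, with a ratio of 1.01 (0.800 to 1.27). Atf3 exceeded Fosl1 3.54-fold (2.43 to 5.28). Thus Jund and Fosl2 changed places, as did Jun and Junb, and Atf3 and Fosl1 were separated at D7 and not at D0. These orders within a library do not depend on the scaling between libraries. Their intervals cover counting error only, and the values of Jun and Jund may include antisense reads as given above.

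Summed over its 4 members, the Fos family stood at 54.9 FPKM at D0 against 29.1 at D7, a ratio of 0.531 (0.505 to 0.558). The 3 Jun genes summed to 102 and 55.2, a ratio of 0.542 (0.517 to 0.569). Neither sum reached the 2.0-fold threshold in the deposited values, whereas both passed it when the libraries were set to a common median (ratios 0.416 for the Fos family and 0.425 for the Jun family). The summed Jun level was 1.85 times the summed Fos family level at D0 and 1.89 times at D7. Fosl2 provided 90.5% of the Fos family FPKM at D0 and 79.0% at D7, while Fos provided 4.74% and 15.4%. Fosl1 provided 3.84% and 4.32%, and Fosb 0.944% and 1.25%. In the Jun family, the share of Junb was 37.2% at D0 and 17.6% at D7. That of Jund was 44.0% and 59.7%, and that of Jun 18.8% and 22.6%. Pairwise, the level of Jun was 7.35 times that of Fos at D0 and 2.78 times at D7. Jund was 1.18 times Junb at D0 and 3.38 times Junb at D7. Shares of mRNA do not give the protein dimers.

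**Figure D3:**
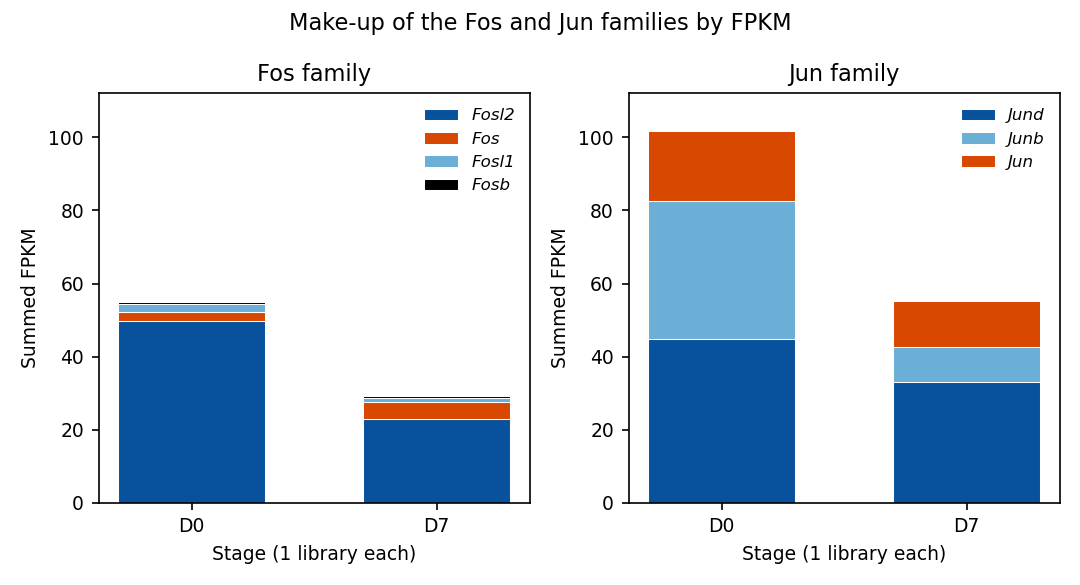
Summed FPKM (vertical axis, from 0) of the Fos family (left) and the Jun family (right) at D0 and D7, stacked by gene. The stacks reach 54.9 and 102 at D0 and 29.1 and 55.2 at D7, with Fosl2 the main part of the Fos family and Junb the part of the Jun family that shrinks most.

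Markers were used to check the labels and to see which other cell types moved with the factors. Over all genes with a ratio, 18.5% were higher and 13.2% were lower at D7. Of 9 brown adipocyte markers with a ratio, 8 were higher at D7, and another 3 (Ucp1, Cidea and Elovl3) were listed at 0 at D0 only. The marker between was Prdm16, at 0.835 FPKM at D0 against 1.02 at D7 (ratio 1.22, 0.965 to 1.53). The paper reports Prdm16 as upregulated at D7 by qPCR. Proliferation markers went the other way from the brown adipocyte markers, with 7 of 8 lower and a median log2 ratio of -1.83. Top2a, which untangles DNA before mitosis, stood at 10.8 FPKM at D0 against 1.75 at D7. Ccnb1 fell from 10.9 to 1.82, and the replication helicase gene Mcm5 from 5.53 to 1.23. Of 11 macrophage markers, none was at 0 in a library, 10 were higher at D7, and their summed FPKM was 156 at D0 against 584 at D7. Mural and smooth muscle markers summed to 3746 and 656, with 3 of 5 lower and 1 higher. Preadipocyte and fibroblast markers summed to 4350 and 2177, with 4 of 9 lower and 1 higher. The endothelial sum was 0.995 and 2.32, with 2 of 4 genes higher, 1 lower and Tie1 at 0 in both. The lower gene, Cdh5, rested on 13 fragments at D0 and 2 at D7. The skeletal muscle sum was 51.1 and 4.81, with 1 of 3 higher, 1 lower and Myod1 at 0 in both. Acta1, the lower gene, held 45.4 FPKM of this sum at D0. The higher gene, Ttn, rested on 7 fragments at D0 and 14 at D7, and the interval of its ratio (0.888 to 6.88) included 1. Fos, Jun, Atf3 and Myc are used by many cell types. The part of these cell types, and of dividing cells, in the levels of the 9 factors was not tested. In such bulk libraries, fewer cells of a type and less RNA per cell cannot be told apart.

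Other leucine zipper proteins can take the place of a Fos or Jun partner. Of 11 such AP-1 partners with a ratio, 2 were higher, 2 were lower and 7 were between, with a median log2 ratio of 0.13. These shares, 18.2% in each direction, were near those of all genes (18.5% higher and 13.2% lower). Jdp2, a Jun dimerization protein that represses AP-1 sites, stood at 41.6 FPKM at D0 against 19.5 at D7 (ratio 0.469, 0.427 to 0.514). Maf, a leucine zipper factor that can pair with Fos and Jun, rose from 7.36 to 17.6 (ratio 2.39, 2.20 to 2.60). The other lower gene, Batf, named after its value was seen, rested on 3 fragments at D0 against 1 at D7 (ratio 0.393, 0.007 to 4.90). Batf3 was listed at 0 at D0 only, and Batf2 in both.

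Genes known as AP-1 targets, a list chosen with earlier results of these data known, were mostly lower at D7. Of 18 with a ratio, 15 were lower by at least 2.0-fold, 0 were higher and all 18 had a ratio below 1, with a median log2 ratio of -2.43. These shares stand beside 13.2% lower, 18.5% higher and 49.4% below 1 among all genes. Ptgs2, the inducible cyclooxygenase, had the lowest ratio, with an FPKM of 67.8 at D0 against 0.870 at D7 (ratio 0.0128, 0.00985 to 0.0165). Il6, an inflammatory cytokine, fell from 9.90 to 0.484 (ratio 0.0489, 0.0208 to 0.0983). The monocyte attractant Ccl2 fell from 206 to 13.3 (ratio 0.0649, 0.0547 to 0.0764). Mmp3, Mmp10 and Ccnd1 were the 3 between, named after their values were seen. Ccnd1, encoding cyclin D1, stood at 57.7 FPKM at D0 against 56.7 at D7 (ratio 0.982, 0.940 to 1.03). Of the 15 lower genes, Mmp9 and Lif, also named after their values were seen, had intervals that include 0.5 (0.0390 to 0.718 and 0.359 to 0.658). Mmp1a was listed at 0 in both libraries. These targets are also controlled by other factors, and several are expressed in macrophages, whose markers were mostly higher at D7 as given above. The part of other factors and of macrophages in these ratios was not tested.

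**Figure D4:**
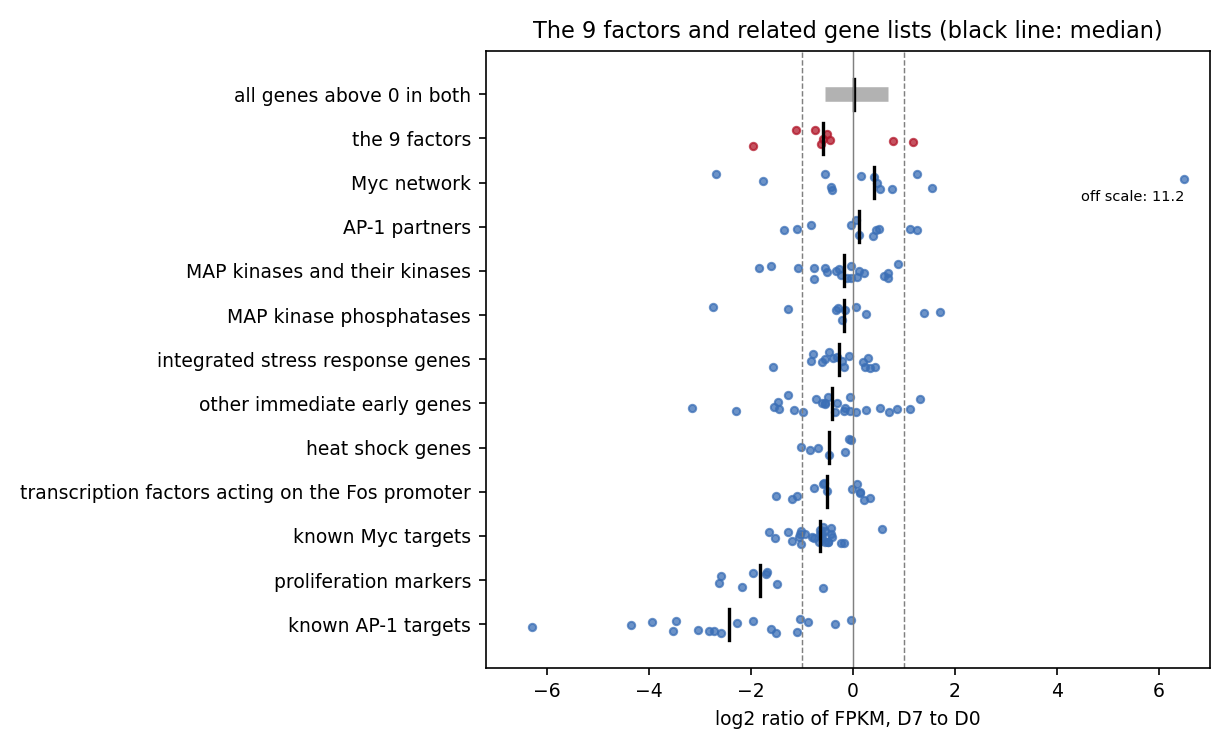
The log2 ratio of FPKM, D7 to D0 (horizontal axis), for the 9 factors (red) and for each gene of 11 related lists (blue) with FPKM above 0 in both libraries. Black lines are medians, the grey bar spans the quartiles of all genes, dashed lines mark 2.0-fold, and 1 gene of the Myc network lies off the scale. The AP-1 target list has the lowest median (-2.43), below the proliferation markers (-1.83). The lists were chosen with earlier results of these data known.

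Among 26 other immediate early genes with a ratio, 7 were lower, 2 were higher and 17 were between, with a median log2 ratio of -0.42. The shares were 26.9% lower and 7.69% higher, against 13.2% and 18.5% of all genes. The 3 orphan nuclear receptors of the Nr4a group, which are induced by cyclic AMP in many cells, were all lower. Nr4a1 stood at 30.7 FPKM at D0 against 3.44 at D7 (ratio 0.112, 0.0937 to 0.133). Nr4a3 fell from 1.26 to 0.257 (ratio 0.205, 0.127 to 0.306) and Nr4a2 from 2.64 to 0.905 (ratio 0.343, 0.242 to 0.469). The 2 higher genes were Per1, a clock gene and glucocorticoid target, at 6.13 and 15.2 (ratio 2.48, 2.25 to 2.74), and Trib1, a pseudokinase gene, at 3.33 and 7.25 (ratio 2.18, 1.88 to 2.53). Egr1, a zinc finger gene that is usually induced along with Fos and is named here after its value was seen, stood at 8.98 FPKM at D0 against 7.27 at D7. Its ratio of 0.810 (0.708 to 0.924) lay on the other side of 1 from that of Fos. Egr4 was listed at 0 in both libraries and Dusp2 at D0 only.

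Serum response factor, its ternary complex partners and the CREB proteins act on the Fos promoter. Of 13 genes of this kind, 3 were lower, 0 were higher and 10 were between, with a median log2 ratio of -0.51. The share that was lower was 23.1%, against 13.2% of all genes, of which 18.5% were higher. Elk3, a ternary complex factor that can repress Fos, stood at 25.8 FPKM at D0 against 9.08 at D7 (ratio 0.352, 0.323 to 0.384). The actin-responsive coactivator Mkl1 fell from 28.2 to 12.4 (ratio 0.439, 0.407 to 0.473). Srf fell from 18.0 to 8.44, and the interval of its ratio of 0.470 (0.427 to 0.517) includes 0.5. Of the 13 genes, 8 had a ratio below 1, whereas the ratio of Fos was above 1. A relation of these genes to the level of Fos was not tested.

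Myc acts within a network of Max partners, in which the Mxd proteins and Mxi1 compete with Myc for Max. Of 13 genes of the network with a ratio, 3 were higher, 2 were lower and 8 were between, with a median log2 ratio of 0.41. The shares, 23.1% higher and 15.4% lower, were near the 18.5% and 13.2% of all genes. Mxd1 stood at 2.09 FPKM at D0 against 6.15 at D7 (ratio 2.94, 2.49 to 3.48), and Mxi1 had 3.96 and 9.44 (ratio 2.38, 2.02 to 2.83). Mxd3, a member of the same group that is known to be expressed in dividing cells, fell from 3.16 to 0.490 (ratio 0.155, 0.0715 to 0.301). Mycl, a Myc paralog, fell from 2.23 to 0.661 (ratio 0.296, 0.204 to 0.421). The largest ratio belonged to Mlxipl, which encodes the carbohydrate response factor ChREBP. It had 1 fragment at D0 and about 1934 at D7, that is, an FPKM of 0.0134 and 30.5 (ratio 2275, 408 to 89919). No fragment of Mycn was found at D7, where it was listed at 0, and 3 at D0.

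Of 27 known Myc targets, 8 were lower, 0 were higher and 19 were between, with a median log2 ratio of -0.64. The share that was lower was 29.6%, against 13.2% of all genes, of which 18.5% were higher. All but Ldha, 26 of the 27, had a ratio below 1. Cdk4, a kinase that drives cells out of G1, stood at 236 FPKM at D0 against 75.3 at D7 (ratio 0.319, 0.301 to 0.337). The nucleolar protein gene Nop56 fell from 43.5 to 15.2 (ratio 0.349, 0.315 to 0.387), and Cad, which starts pyrimidine synthesis, from 13.2 to 5.46 (ratio 0.414, 0.379 to 0.452). Ldha, the lactate dehydrogenase gene named after its value was seen, had 775 FPKM at D0 against 1155 at D7 (ratio 1.49, 1.47 to 1.51). These genes are also used for growth and division in general, and proliferation markers were lower at D7 as given above. Their part in the lower Myc targets was not tested.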

How the data were processed

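RNA-Seq values of brown preadipocytes (D0) and brown adipocytes (D7) were used, with 1 library per stage. Per the paper's methods, the authors removed low-quality, adaptor, duplicate and rRNA reads, and used SOAP2 to align the rest to mm10 and to gene sequences. The deposited table gives each gene 1 FPKM value in each library. The submitters' processing notes name Bowtie2 instead. The annotation is not given in the sources used here. Of 27324 rows, 23361 carried values. In 27 of these the symbol has the form of a date.

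The ratio of D7 to D0 was taken without a pseudocount or rescaling, and at least 2.0 or at most 0.5 was called changed, which is the threshold of the study's methods. No ratio was taken where a library was at 0. The calls made in this way, 2767 genes higher and 1980 lower, differ from the counts in the paper. Those counts were met with a floor of 0.01 FPKM and division by the library median, as given below. Starts in the table are counted from 0 (72.0% of 10480 genes with the RefSeq end began 1 base below the RefSeq start), and 1 was added.

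Depth was recovered on 607 single-exon genes that were 600 bases or longer. A length correction of 179 bases at D0 and 182 at D7 and denominators of 21471020 and 18265378 fragments made 100.0% of the values of up to 20 fragments (81 and 89 values) whole within 0.1, against 17.3% and 18.2% with shuffled lengths. For the 9 factors, the length of the named transcript in GENCODE M21 was used, with its ends shifted to those of the locus. Fragments of 7 of them were whole within 0.1 in both libraries. Ratio intervals are exact Clopper-Pearson intervals, level intervals exact Poisson intervals, and those of family sums a normal approximation on the log scale, all at 95%.

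The members, the 11 gene lists and the 6 marker lists were chosen with earlier results of these data known. Genes were named where they are members, or among up to 3 largest and 3 smallest ratios of a list past 2.0-fold with FPKM of at least 1 in a library. The values of 1 gene that this rule names are not reported here. Alternatives were pseudocounts of 0.1 and 1, TPM, median centring, the upper quartile, scaling to the library median after a floor of 0.01, a filter at FPKM of 1, summing of rows with one symbol and thresholds of 4.0 and 1.5. The scripts were tested on simulated data. Ratios and intervals used scipy 1.17.1 with numpy 2.4.6 and pandas 2.3.3 under Python 3.11.15, and plots matplotlib 3.10.9.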

Additional observations from a re-analysis of the deposited data

How the results depend on the processing

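No paired analysis was possible because each stage has 1 library, and no library could be left out. With the floor of 0.01 and division by the library median, the ratio of the summed Fos family became 0.416 and that of the summed Jun family 0.425, the median log2 ratio over the 9 factors -0.93, and the count of higher factors 0. The same 2 factors, Junb (0.201) and Fosl2 (0.363), and also Fosl1 (0.468) were then lower. This setting lowers the ratio of every gene above the floor in both libraries by construction. Of its calls over all genes 57.5% were lower, against 41.7% for the unscaled ratios. The calls of this setting, 2836 higher and 3832 lower, equal the counts in the paper, whereas the unscaled ratios gave 2767 and 1980. Under the setting that meets the paper's counts, Atf3 (1.77) was thus not called, Fosl1 was lower and both family sums passed 2.0-fold. With 1 added to each FPKM, 0 factors were higher. At a threshold of 4.0, 0 factors were higher and 0 lower. Of the 165 list genes with a ratio, each counted once, 1 was higher and 17 lower, against 8.08% and 3.86% of all genes. At 1.5, 2 factors were higher and 4 lower. Of the list genes, 16 were higher and 71 lower, against 27.7% and 23.6% of all genes. At 2.0, 9 list genes were higher (5.45%) and 50 lower (30.3%), against 18.5% and 13.2%. The other 48 of 60 values of counts, medians and sums under the alternatives moved by at most 1.5 times or within their intervals. Of 71 values of single factors, 66 lay within the counting interval. The other 5 were those of Fosl2, Jun, Junb, Jund and Myc after division by the library median. Depth limits Fosb, Fosl1 and Atf3 most, with 24, 35 and 76 fragments in their lower library. Counting intervals do not cover differences between cultures.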

Other observations

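MAP kinases phosphorylate Jun, Fos and their activators, and the Dusp phosphatases reverse this. Of 20 MAP kinases, their kinases and ribosomal S6 kinases, 3 were lower, 0 were higher and 17 were between, with a median log2 ratio of -0.17. The 15.0% that were lower stand near the 13.2% among all genes, of which 18.5% were higher. Mapk13, the p38 delta gene, stood at 8.63 FPKM at D0 against 2.41 at D7 (ratio 0.279, 95% interval 0.226 to 0.340). Rps6ka2 fell from 14.3 to 4.74 (ratio 0.331, 0.297 to 0.367) and the p38 beta gene Mapk11 from 4.22 to 2.01 (ratio 0.477, 0.365 to 0.618). Of 10 MAP kinase phosphatases with a ratio, 2 were higher and 2 lower (20.0% each), with a median of -0.18. Dusp4 rose from 10.2 to 33.2 (ratio 3.26, 2.94 to 3.62) and Dusp10, which acts on p38 and Jun N-terminal kinases, from 2.24 to 5.91 (ratio 2.63, 2.12 to 3.29). Dusp9 fell from 1.02 to 0.152 (ratio 0.150, 0.0575 to 0.330) and Dusp5 from 1.91 to 0.788 (ratio 0.413, 0.207 to 0.775).

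Atf3 is a known target of the integrated stress response, in which Atf4 is the central factor. Of 16 genes of this response, 1 was lower, 0 were higher and 15 were between, with a median log2 ratio of -0.26. The share that was lower was 6.25%, against 13.2% lower and 18.5% higher among all genes. The lower gene was Chac1, at 14.7 and 5.01 (ratio 0.340, 0.277 to 0.415). Atf4, named after its value was seen, stood at 204 FPKM at D0 against 115 at D7 (ratio 0.564, 0.540 to 0.588). Ddit3 and Trib3, also named after their values were seen, had ratios of 0.953 (0.880 to 1.03) and 1.15 (1.05 to 1.26). The part of this response in the ratio of Atf3 (2.26) was not tested. Of 7 heat shock genes, which can mark handling of cells, 1 was lower and 0 were higher, and the median was -0.47. The 14.3% that was lower stands near the 13.2% of all genes, of which 18.5% were higher. The lower gene, Hspa1b, had 13.8 at D0 against 6.83 at D7 (ratio 0.494, 0.433 to 0.562), a value that is uncertain because Hspa1a is a near-identical copy.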
